A study of Mus musculus with 9 samples.

Results

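The Mmp, Adamts and Timp families were followed across the array: every probe set whose single listed symbol was Mmp with a number, Adamts with a number, or Timp1 to Timp4. This gave 44 of the 19934 genes with a probe set of 1 symbol, by 68 of the 28270 probe sets in the value table: 22 for 22 Mmp genes, 42 for 18 Adamts genes and 4 for 4 Timp genes. The tissue was aortic valve of C57BL/6J mouse pups at postnatal day 1, with the valves of 5 to 6 pups pooled into each sample and held as explants on floating filters in serum-containing medium for 48 hours. The groups were DMSO (0.001%), the vehicle control, all-trans retinoic acid (ATRA) at 1 µmol/L in DMSO, and LE540, an antagonist of retinoic acid receptors, with 3 pools and 3 arrays each. LE540's dose and vehicle are not in the labels, and neither is the pups' sex. The pools are labelled as biological replicates, and the comparisons share arrays: both treatments were set against the same DMSO arrays.

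Mmp genes encode zinc-dependent matrix metalloproteinases, secreted or membrane-bound enzymes that cut collagens, elastin, proteoglycans and other proteins of the extracellular matrix. Adamts genes encode secreted relatives with thrombospondin-type repeats, among them enzymes that cleave the proteoglycans versican and aggrecan and enzymes that trim procollagens. Timp genes encode the tissue inhibitors that bind the active site of these enzymes, and in heart valves the balance between protease and inhibitor accompanies the sorting of the matrix into its layers after birth.

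Of the 44 genes, 41 had 1 probe set each, while Adamts3 had 16, Adamts9 had 6 and Adamts17 had 5. Mmp15 and Adamts2, the other family members in the RefSeq gene table, had no such probe set and were not analysed here. Intensities are on the linear RMA scale, and levels are not set against each other between probe sets, because probes differ in how well they bind. Array medians ran from 123.61 to 128.13 and lower quartiles from 57.7 to 63.0, and signal over background is not known for either. Taking for each gene its brightest probe set on average, 16 of the 44 genes lay above the median of their own array on all 9 arrays: Mmp2, Mmp11, Mmp12, Mmp14, Mmp19, Mmp23, Adamts1, Adamts3, Adamts7, Adamts9, Adamts10, Adamts12, Adamts17, Timp1, Timp2 and Timp3. Another 4, Mmp1a, Mmp1b, Mmp8 and Mmp13, lay below the lower quartile on all 9.

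LE540 replicate 1 stood apart from the other arrays, at 63.7 on a first principal component (32.5% of the variance) where they ran from -21.5 to 13.9, so the main results with LE540 are also given without that array. The labelled tissue was checked on markers. Of 12 valve interstitial and fibroblast markers, 11 lay above the array median on all 9 arrays. So did 4 of 10 endothelial and 7 of 12 cardiomyocyte markers, whereas 4 of 9 neutrophil markers lay below the lower quartile on all 9. No marker of any list passed in any comparison. In pooled tissue, fewer cells of a type and less RNA per cell cannot be told apart.

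The first question was what added retinoic acid did to these genes, in ATRA vs DMSO. No member passed (limma on log2 intensities, Benjamini-Hochberg adjusted p under 0.1 over 23397 probe sets), against 0.0812% of all probe sets tested, that is 19 of 23397. At an unadjusted p under 0.05, limma gave 7 members higher and 1 lower, 10.3% and 1.47% of the 68, beside 2.34% and 2.36% of all. With 1 probe set per gene 4 of 44 were higher (9.09%, against 2.43%) and 0 lower. The ATRA arrays lay wholly above the DMSO arrays for 6 members (8.82%, against 4.97% of all) and wholly below for 3 (4.41%, against 6.34%). The median log2 change over the members was 0.10, and -0.01 over all. Of the 68, 48 were higher in ATRA (70.6%, against 48.5% of all).

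LE540 vs DMSO asks what the receptor antagonist did. Again no member passed, against 0.0299% of all probe sets, and at an unadjusted p under 0.05 limma gave 0 higher and 8 lower (11.8%), beside 4.47% and 4.33% of all. With 1 probe set per gene 2 of 44 were lower, 4.55% against 4.53% of all, so by this rule the share per gene was near the background. LE540 arrays lay wholly below DMSO for 12 members (17.6%, against 5.86% of all) and wholly above for 1 (1.47%, against 6.74%). Those 12 probe sets belong to 7 genes, and with 1 probe set per gene the count was 6 of 44 (13.6%, against 6.04%). Without LE540 replicate 1 the members wholly below numbered 19 (27.9%), beside 10.9% of all, a share that grows when a group holds 2 arrays.

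ATRA vs LE540 sets added retinoic acid against the receptor antagonist. Here 1 member passed, a probe set of Adamts3 that was higher in ATRA, against 0.41% of all probe sets passing higher and 0.603% in either direction. At an unadjusted p under 0.05, 18 members were higher (26.5%) and 0 lower, beside 4.82% and 4.72% of all. With 1 probe set per gene 11 of 44 were higher (25%, against 4.95%). ATRA arrays lay wholly above LE540 for 17 members (25%, against 5.24%) and wholly below for 1 (1.47%, against 6.24%). The 17 probe sets belong to 11 genes, and with 1 probe set per gene the count was 11 of 44 (25%, against 5.5%). Without LE540 replicate 1 it was 23 of 68 (33.8%, against 9.86%). The median log2 change was 0.25 over the members and -0.03 over all, and 0.14 with 1 probe set per gene, since Adamts3 and Adamts9 supply 22 of the 68 probe sets.

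**Figure D1:**
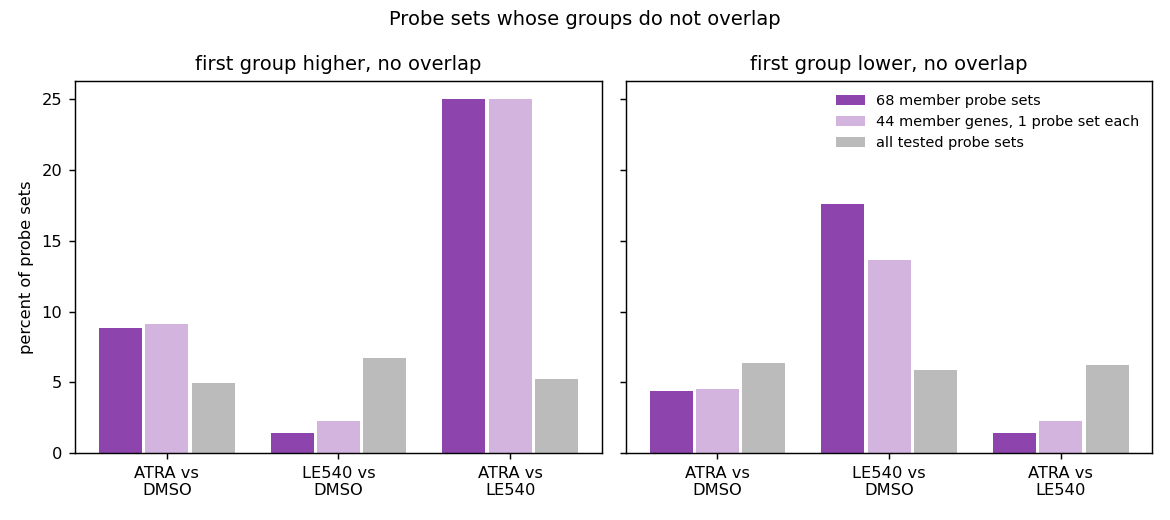
Percent of probe sets whose 3 arrays in one group all lie above (left) or below (right) the 3 arrays of the other, for the 68 member probe sets, for 44 member genes with 1 probe set each, and for all 23397 probe sets tested. In ATRA vs LE540 the higher share is 25% for the members and 5.24% for all, and in LE540 vs DMSO the lower share is 17.6% and 5.86%.

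Among the Mmp genes, the stromelysins cut proteoglycans, fibronectin and other non-fibrillar matrix, and Mmp3 also activates other Mmp proenzymes. Mmp3 lies in a run of 10 Mmp genes on chromosome 9, in the order Mmp13, Mmp12, Mmp1b, Mmp3, Mmp1a, Mmp10, Mmp8, Mmp27, Mmp20 and Mmp7. Promoters from 250 bases before to 50 after the start (RefSeq, GRCm38.p6) were found for 30 of the 44 member genes, 33 promoters in all. The promoters of Mmp3 (chr9:7445572-7445871, plus strand) and of Mmp10 in the same run (chr9:7502092-7502391, plus strand) are shown because both probe sets had ATRA arrays wholly above DMSO, and because they carry the letters of the AP-1 motif. Capitals mark matches on either strand to the AP-1 motif TGANTCA. They also mark TATAAA, the letters of the TATA box. The GC box, GGGCGG, is marked too. The last motif searched was AGGTCA, the core letters read by nuclear receptors. In the promoters printed no match overlaps another.
Mmp3: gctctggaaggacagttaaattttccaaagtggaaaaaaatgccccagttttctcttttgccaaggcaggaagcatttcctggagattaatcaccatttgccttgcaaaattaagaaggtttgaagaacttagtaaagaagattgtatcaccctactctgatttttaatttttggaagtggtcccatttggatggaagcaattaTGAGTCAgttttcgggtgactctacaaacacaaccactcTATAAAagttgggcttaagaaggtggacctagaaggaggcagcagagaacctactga
Mmp10: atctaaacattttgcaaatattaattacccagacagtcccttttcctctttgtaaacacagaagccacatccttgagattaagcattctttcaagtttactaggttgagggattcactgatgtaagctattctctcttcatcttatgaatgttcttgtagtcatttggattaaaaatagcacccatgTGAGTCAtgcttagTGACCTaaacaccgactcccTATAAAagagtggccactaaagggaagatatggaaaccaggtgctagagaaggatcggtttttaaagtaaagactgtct
In the Mmp3 promoter TGAGTCA begins 46 bases and TATAAA 7 bases before the annotated start. In the Mmp10 promoter TGAGTCA begins 63, TGACCT, the reverse strand of AGGTCA, 49 and TATAAA 29 bases before it. TGANTCA was in 8 of the 33 member promoters, and in 7.81% of all 32851 promoters of that length. Those 8 belong to Mmp3, Mmp7, Mmp10, Mmp12, Mmp13, Mmp20, Mmp1a and Mmp1b, all in the run on chromosome 9. Besides Mmp3 and Mmp10, these genes had overlapping arrays in ATRA vs DMSO, with log2 changes from -0.23 (Mmp12) to 0.11 (Mmp20). AGGTCA was in 4 member promoters (16.3% of all) and TATAAA in 11 (13.6% of all). A match is a run of letters and shows no binding.

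The Mmp3 probe set (10583071) read 150.2, 188 and 91.2 on the DMSO arrays, 261, 2040.2 and 650.5 on the ATRA arrays, and 186, 193 and 118 on the LE540 arrays, each in the order replicate 1 to 3. All 3 ATRA arrays lay above all 6 others, and they differed widely among themselves, with replicate 1 closest to the other groups. The log2 change in ATRA vs DMSO was 2.36 (SE 0.64, 95% interval 0.90 to 3.81), 5.12-fold and the largest of any member, but it did not pass (limma adjusted p = 0.70). Within each replicate number ATRA was higher, by 0.80, 3.44 and 2.84 log2. Leaving out ATRA replicate 2 gave 1.59 and leaving out ATRA replicate 1 gave 3.07. Against LE540 it was 2.12 (SE 0.64, adjusted p = 0.322), and 2.21 without LE540 replicate 1. LE540 vs DMSO was 0.24, with an interval from -1.22 to 1.70.

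Mmp10, a second stromelysin, stayed under the median of every array, at 65.0 to 66.6 in DMSO, 69.5 to 81.1 in ATRA and 56.8 to 81.0 in LE540. ATRA arrays lay wholly above DMSO, by a log2 change of only 0.20 (adjusted p = 0.999). When LE540 replicate 1, at 81.0, was left out, LE540 lay wholly below both groups, at -0.17 against DMSO and 0.37 in ATRA vs LE540. Mmp11, a stromelysin named for its structure that cuts collagens poorly, gave 0.28 in ATRA vs DMSO, -0.11 in LE540 vs DMSO and 0.39 in ATRA vs LE540, with overlapping arrays throughout. The other Mmp genes of the run on chromosome 9 gave log2 changes between -0.23 (Mmp12) and 0.26 (Mmp27) in ATRA vs DMSO.

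The gelatinases digest denatured collagen and basement membrane. Mmp2 (10573924) read 3208, 1416 and 2202 in DMSO, 3277, 2256 and 3093 in ATRA, and 864, 1299 and 1979 in LE540. Every ATRA array lay above every LE540 array, while DMSO overlapped both. The log2 change was 1.12 in ATRA vs LE540 (SE 0.36, 2.18-fold, limma adjusted p = 0.348), higher in ATRA within all 3 replicate numbers, at 1.92, 0.80 and 0.64. Against DMSO it was 0.40 for ATRA and -0.72 for LE540 (adjusted p = 0.591). Without LE540 replicate 1, the lowest array, LE540 vs DMSO was -0.43 and ATRA vs LE540 0.82. Mmp9, the second gelatinase, read 76.5 to 134 over all 9 arrays with overlap in every comparison, at log2 changes of 0.20 in ATRA vs DMSO, 0.14 in LE540 vs DMSO and 0.06 in ATRA vs LE540.

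The collagenases cut the triple helix of fibrillar collagen. Mmp13 stayed between 50.8 and 58.8, below the lower quartile on every array, and 6 arrays held the same value of 54.1. Its log2 changes were 0.06 in ATRA vs DMSO, -0.01 in LE540 vs DMSO and 0.07 in ATRA vs LE540, and a probe set this dim can show little. The other 3 collagenases, also below the lower quartile throughout, lay between 0.05 and 0.24 in ATRA vs DMSO and between 0.03 and 0.30 in LE540 vs DMSO. Mmp12, the macrophage elastase, spread from 213 to 937 within DMSO alone, and its changes of -0.23 in ATRA and -0.35 in LE540 against DMSO were well inside that spread. The summed intensity of 11 macrophage markers ran from 2069 to 4390 in DMSO, 1986 to 3557 in ATRA and 2613 to 3553 in LE540. Whether it bears on Mmp12 was not tested.

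Of the 5 membrane-bound enzymes measured, Mmp14, which activates the Mmp2 proenzyme at the cell surface, read 1956, 1026 and 1406 in DMSO, 1933, 1479 and 1445 in ATRA, and 1282, 1094 and 1565 in LE540. The groups overlapped, at log2 changes of 0.18 in ATRA vs DMSO, -0.12 in LE540 vs DMSO and 0.30 in ATRA vs LE540. Mmp16 had the lowest value of this class in LE540 vs DMSO, -0.73 (SE 0.40, adjusted p = 0.617). LE540 replicate 1 read 118 against 230.5 and 269 for the other LE540 arrays, and without it the change was -0.37. Mmp17, Mmp24 and Mmp25 lay between -0.22 and 0.17 in the 3 comparisons.

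Among the remaining Mmp genes, Mmp19, a secreted enzyme of basement membrane and other matrix, had the largest change in ATRA vs DMSO after Mmp3 among the Mmp genes. It read 163, 198 and 147 in DMSO, 303, 247 and 294 in ATRA, and 147, 201 and 267 in LE540. ATRA lay wholly above DMSO, and LE540 replicate 3 lay between the ATRA values. The log2 change was 0.74 (SE 0.21, 1.67-fold, limma adjusted p = 0.758), and 0.24 in LE540 vs DMSO. Leaving out LE540 replicate 1, its lowest LE540 array, LE540 vs DMSO was 0.46 (adjusted p = 0.87) with LE540 wholly above DMSO, and ATRA vs LE540 was 0.27 instead of 0.49.

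Mmp23, a small membrane-anchored member, read 237, 214 and 343 in DMSO, 404, 308 and 406 in ATRA, and 266, 207 and 258 in LE540. ATRA lay wholly above LE540, and DMSO replicate 3 lay inside the ATRA range. ATRA vs LE540 was 0.61 (SE 0.20, adjusted p = 0.361), close to equal within the replicate numbers at 0.60, 0.57 and 0.65, and it was 0.68 without LE540 replicate 1. ATRA vs DMSO was 0.51 (adjusted p = 0.999). Mmp27 also had ATRA wholly above LE540, with a change of 0.51 (SE 0.19, adjusted p = 0.43), or 0.59 without LE540 replicate 1. It read 59.6 to 88.6 in ATRA, where the lower quartiles of the arrays ran from 57.7 to 62.3. In LE540 it read 42.7 to 59.0, with lower quartiles from 58.0 to 63.0. Mmp20, the enamel enzyme, Mmp21 and Mmp28 lay between -0.16 and 0.13 against DMSO under both treatments. Of these, Mmp21 lay wholly below DMSO in both, by -0.13 in ATRA and -0.16 in LE540 (limma adjusted p = 0.999 and 0.698).

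**Figure D2:**
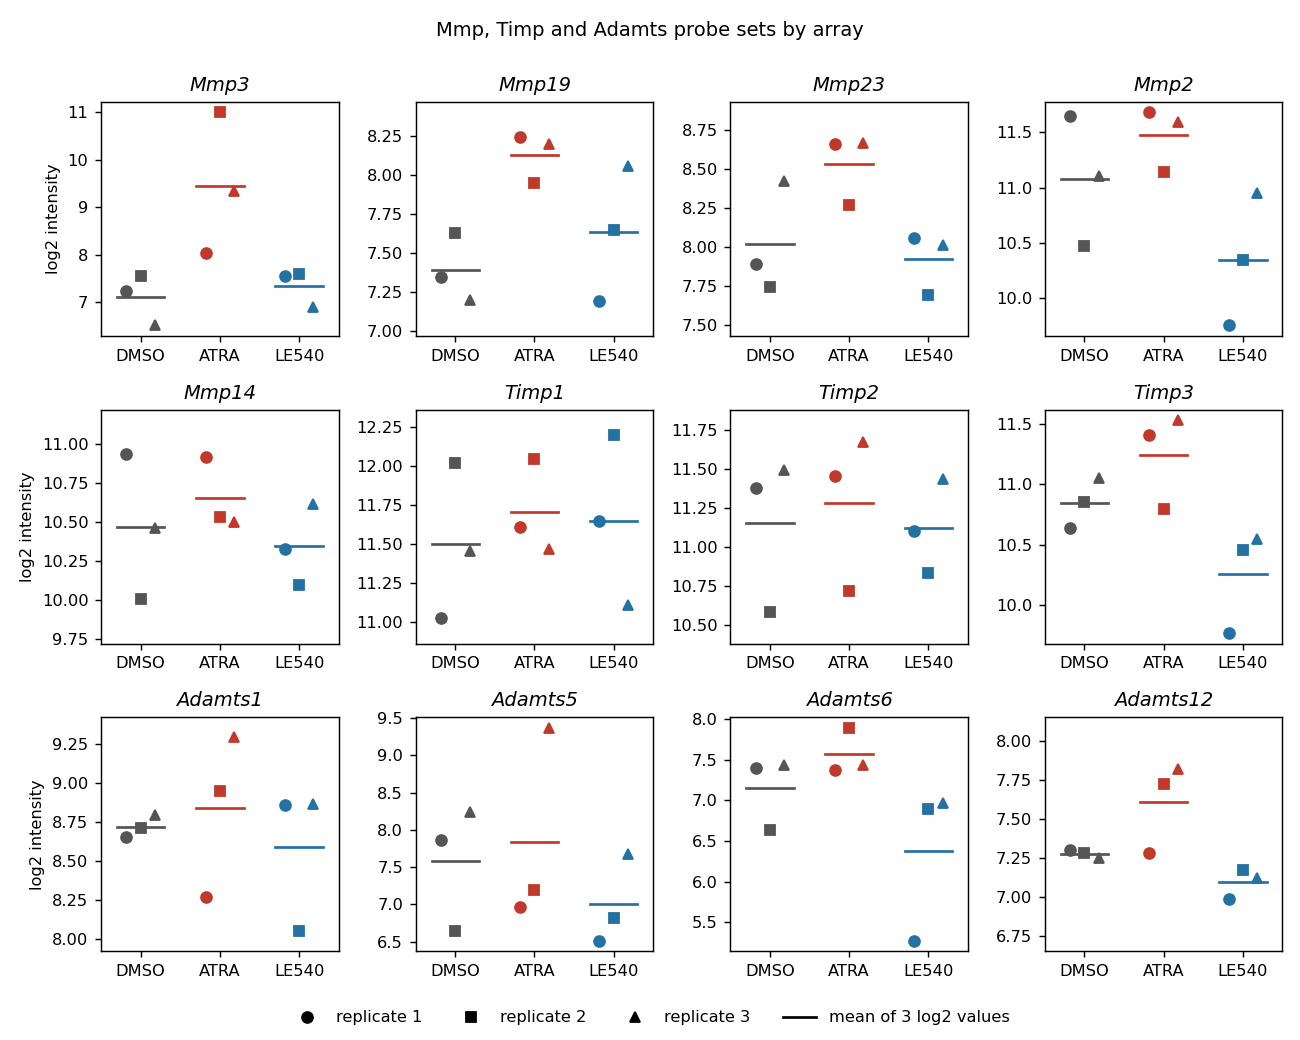
Log2 intensity of 12 members on each of the 9 arrays, by group, with the symbol giving the replicate number and the line the mean of 3 log2 values; each panel has its own axis. Mmp3 and Mmp19 have all ATRA points above all DMSO points. Mmp2, Mmp3, Mmp23, Timp3, Adamts6 and Adamts12 have all ATRA points above all LE540 points. Replicate 2 is the highest array of each group for Timp1 and the lowest for Timp2.

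The Timp proteins inhibit the enzymes above, and Timp3, which binds to the matrix itself, also inhibits Adamts enzymes. Timp3 (10365482) read 1597, 1854 and 2118 in DMSO, 2713, 1780.4 and 2958 in ATRA, and 874, 1404 and 1495 in LE540. Every LE540 array lay below every array of the other groups, and ATRA replicate 2 lay within the DMSO values. ATRA vs LE540 was 0.99 (SE 0.25, 95% interval 0.42 to 1.56, 1.98-fold, limma adjusted p = 0.228), and LE540 vs DMSO was -0.59 (SE 0.25, adjusted p = 0.559). Without LE540 replicate 1 these were 0.74 and -0.35. ATRA vs DMSO was 0.40, with an interval from -0.18 to 0.97.

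The Timp3 promoter (chr10:86300162-86300461, plus strand, RefSeq GRCm38.p6) and that of Adamts3 (chr5:89883285-89883584, minus strand) are shown because these genes had the lowest adjusted p in ATRA vs LE540 among the Timp and Adamts genes, and to set them beside Mmp3. Capitals mark the same motifs on either strand.
Timp3: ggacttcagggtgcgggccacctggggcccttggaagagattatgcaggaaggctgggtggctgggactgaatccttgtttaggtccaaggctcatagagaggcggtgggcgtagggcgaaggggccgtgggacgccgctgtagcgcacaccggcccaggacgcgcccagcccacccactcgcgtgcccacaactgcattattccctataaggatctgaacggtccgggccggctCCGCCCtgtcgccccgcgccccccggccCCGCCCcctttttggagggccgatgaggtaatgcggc
Adamts3: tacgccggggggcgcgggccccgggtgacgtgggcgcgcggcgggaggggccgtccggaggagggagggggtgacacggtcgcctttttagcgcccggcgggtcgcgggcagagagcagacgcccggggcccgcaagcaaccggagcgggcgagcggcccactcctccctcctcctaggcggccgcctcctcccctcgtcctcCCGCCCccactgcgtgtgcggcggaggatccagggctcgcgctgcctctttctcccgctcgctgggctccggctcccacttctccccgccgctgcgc
Of the 4 motifs, only the GC box matched in these promoters, as CCGCCC on the reverse strand: 15 bases before and 14 after the start of Timp3, and 47 bases before the start of Adamts3. GGGCGG was in 16 of the 33 member promoters and in 35.7% of all promoters. No match says only that these letters are not in this window.

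Timp1 read 2091, 4156 and 2816 in DMSO, 3127, 4228 and 2841 in ATRA, and 3207, 4699.8 and 2214 in LE540. Timp2 read 2661, 1538 and 2887 in DMSO, 2808, 1682 and 3274 in ATRA, and 2201, 1823 and 2773 in LE540. Arrays of the same number resembled each other across treatments: replicate 2 was the highest array of every group for Timp1 and the lowest for Timp2. Their log2 changes were 0.21 and 0.13 in ATRA vs DMSO, 0.15 and -0.03 in LE540 vs DMSO, and 0.06 and 0.16 in ATRA vs LE540, none larger than the spread within a group. For Timp2, ATRA was above DMSO within each number, by 0.08, 0.13 and 0.18. Timp4 read 61.1 to 98.8 over all arrays, under the array medians, with changes of 0.06, -0.12 and 0.18.

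The procollagen N-proteinases remove the amino-terminal propeptide of fibrillar procollagens, and Adamts3 also takes part in activating the lymphatic growth factor Vegfc. Its probe set 10531191 read 73.8, 115 and 104 in DMSO, 120.1, 129 and 129.8 in ATRA, and 50.9, 39.7 and 51.9 in LE540. The 3 groups were fully separated, ATRA above DMSO above LE540, and the LE540 values lay below the lower quartile of their arrays, where the size of a change is uncertain. ATRA was higher than LE540 by 1.42 log2 (SE 0.18, 95% interval 1.02 to 1.82, 2.68-fold, limma adjusted p = 0.0205), within the replicate numbers by 1.24, 1.70 and 1.32. The adjusted p ran from 0.017 to 0.0818 over the alternatives that tested it, and was 0.056 without LE540 replicate 1 (log2 change 1.48). LE540 vs DMSO was -1.03 (SE 0.18, adjusted p = 0.206) and ATRA vs DMSO 0.40 (adjusted p = 0.999).

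The 16 probe sets of Adamts3 disagreed in size and pattern, so 1 of 16 passing describes that probe set and not the gene as a whole. In ATRA vs DMSO 13 were higher and 3 lower, from -0.67 (10531173) to 1.36 (10531183). In LE540 vs DMSO 3 were higher and 13 lower, from -1.03 to 0.22. In ATRA vs LE540 15 were higher, from -0.02 to 1.42, 7 of them with ATRA wholly above LE540. Leaving out LE540 replicate 1 gave 12 lower in LE540 vs DMSO, and 16 higher in ATRA vs LE540, from 0.0081 to 1.48. The brightest on average, 10531189, read 163 to 211 in DMSO, 175 to 268 in ATRA and 156 to 159 in LE540, and its ATRA vs LE540 change was 0.52 (SE 0.17, adjusted p = 0.354), the same to 2 decimals without LE540 replicate 1.

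Probe sets 10531181 to 10531187 and 10531201 were high mainly in ATRA replicates 1 and 3. For 10531183 the ATRA arrays read 288, 71.8 and 137, against 43.5 to 78.3 in DMSO. Probe set 10531203 was high in replicates 2 and 3 instead, at 87.7, 175 and 159 in ATRA against 49.3 to 85.8 in DMSO (0.92, SE 0.32, adjusted p = 0.93). Probe set 10531173 went the other way, with 64.6 to 85.9 in ATRA and 67.0 to 85.9 in LE540, both wholly below DMSO at 86.9 to 153, and changes of -0.67 and -0.65.

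Other probe sets of the gene were low in LE540. Probe set 10531195 had LE540 wholly below both other groups, at 30.8 to 36.2 against 47.8 to 81.7 in DMSO (-0.86 with and without LE540 replicate 1, SE 0.22, adjusted p = 0.411), mostly under the lower quartile of the arrays. Probe set 10531193 read 114 to 142 in LE540 and 188 to 249 in ATRA, a change of 0.76 in ATRA vs LE540 (adjusted p = 0.357), or 0.66 without LE540 replicate 1. Probe set 10531187 was 1.06 higher in ATRA than in LE540 (SE 0.28, adjusted p = 0.244), or 1.09 without LE540 replicate 1, and passed when ATRA replicate 2 was left out (1.38, adjusted p = 0.0605). Adamts14, the other procollagen enzyme measured, gave 0.07 in ATRA vs DMSO, -0.01 in LE540 vs DMSO and 0.08 in ATRA vs LE540.

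**Figure D3:**
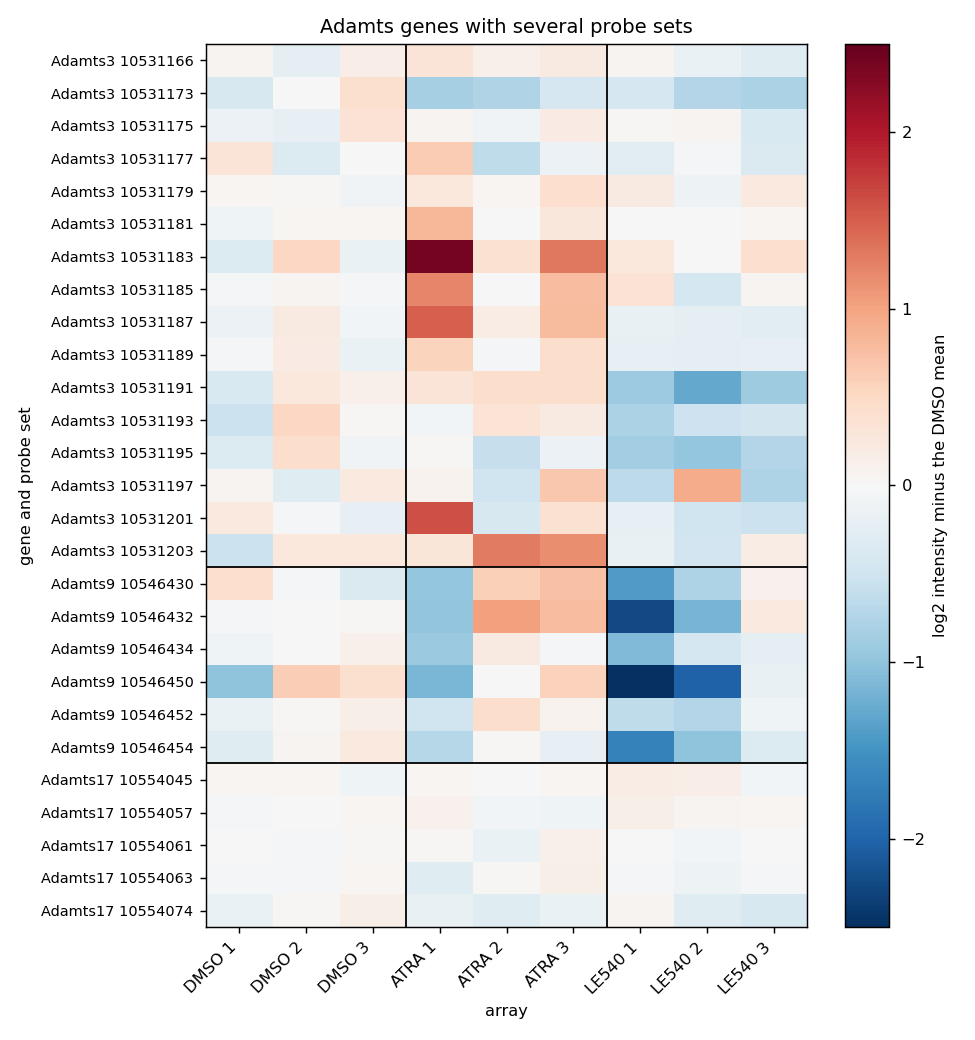
Log2 intensity minus the DMSO mean for the 27 probe sets of Adamts3, Adamts9 and Adamts17 on the 9 arrays; red is above and blue below that mean. Adamts3 rows differ from each other, the 6 Adamts9 rows are low in LE540 replicates 1 and 2 and in ATRA replicate 1, and Adamts17 rows stay near 0.

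The proteoglycanases cleave versican and aggrecan, and of these Adamts9, which is needed for the remodelling of versican in heart valves, gave the largest values. Its 6 probe sets were all lower in LE540 than in DMSO, by log2 changes of -0.49 to -1.63, and all higher in ATRA than in LE540, by 0.34 to 1.43. With LE540 replicate 1 left out these ranges were -0.33 to -1.10 and 0.090 to 0.91. Probe set 10546450 read 212, 652 and 568 in DMSO, 193, 425 and 637 in ATRA, and 66.9, 106 and 378 in LE540. LE540 replicates 1 and 2 lay below all other arrays, and replicate 3 lay inside the DMSO range. Its LE540 vs DMSO change was -1.63 (SE 0.71, limma adjusted p = 0.561), and -1.10 without LE540 replicate 1.

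Probe set 10546454 of Adamts9 read 232, 299 and 341 in DMSO, 176, 292 and 250.3 in ATRA, and 88.9, 143 and 226 in LE540. LE540 lay wholly below DMSO (-1.02, SE 0.33, adjusted p = 0.529), with -0.68 without LE540 replicate 1. Probe set 10546434 also had LE540 wholly below DMSO, at 128 to 233 against 253 to 298 (-0.59, adjusted p = 0.604, and -0.34 without LE540 replicate 1). The brightest on average, 10546430, read 583, 421 and 339 in DMSO, 223, 656 and 727 in ATRA, and 163, 255 and 471 in LE540, with overlap in every comparison. Against DMSO, ATRA changes of the 6 ran from -0.29 to 0.27, and ATRA replicate 1 was the lowest ATRA array for each.

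Adamts5, an aggrecanase that also cuts versican, read 233, 99.6 and 303 in DMSO, 125, 146 and 662 in ATRA, and 91.3, 113 and 204 in LE540. The groups overlapped, and replicate 3 was the highest array of each. The log2 changes were 0.26 in ATRA vs DMSO, -0.58 in LE540 vs DMSO and 0.84 in ATRA vs LE540, each with an SE of 0.66, and the last pair became -0.33 and 0.59 without LE540 replicate 1. Adamts1, another versican-cleaving enzyme, read 402 to 444 in DMSO, 309 to 627 in ATRA and 265 to 466 in LE540, with changes of 0.12, -0.13 and 0.25 (-0.26 and 0.38 for the comparisons with LE540 when its replicate 1 was left out). Adamts4, Adamts8, Adamts15 and Adamts20 lay between -0.0044 and 0.33 in ATRA vs DMSO and between -0.06 and 0.09 in LE540 vs DMSO.

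Of the other Adamts genes, Adamts6, a close relative of Adamts10, read 168, 99.2 and 173 in DMSO, 166, 237 and 173 in ATRA, and 38.7, 119 and 125 in LE540. ATRA lay wholly above LE540, at 1.19 log2 (SE 0.44, 2.28-fold, limma adjusted p = 0.427). Without LE540 replicate 1, its lowest array, the change was 0.63, and LE540 vs DMSO was -0.22 instead of -0.77. Adamts12, which cuts cartilage oligomeric matrix protein, read 157, 155 and 152 in DMSO, 155, 212 and 226 in ATRA, and 126, 144 and 139 in LE540. LE540 lay wholly below both groups, and ATRA replicate 1 was at the DMSO level. ATRA vs LE540 was 0.52 (SE 0.14, adjusted p = 0.261). It was 0.46 without LE540 replicate 1, and 0.68 with an adjusted p of 0.0871 when ATRA replicate 1 was left out.

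Adamts10, an enzyme tied to fibrillin microfibrils, was named after its values were seen, because its groups were fully separated in all 3 comparisons, as for Adamts3 probe set 10531191. It read 287, 282 and 285 in DMSO, 302, 291 and 297 in ATRA, and 182, 257 and 267 in LE540. The steps were small, at 0.06 in ATRA vs DMSO, -0.30 in LE540 vs DMSO and 0.36 in ATRA vs LE540 (adjusted p = 0.473). Without LE540 replicate 1 the comparisons with LE540 gave -0.12 and 0.18. The remaining genes of this group, Adamts7, Adamts13, Adamts16, Adamts17, Adamts18 and Adamts19, lay between -0.22 and 0.31 in all 3 comparisons.

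**Figure D4:**
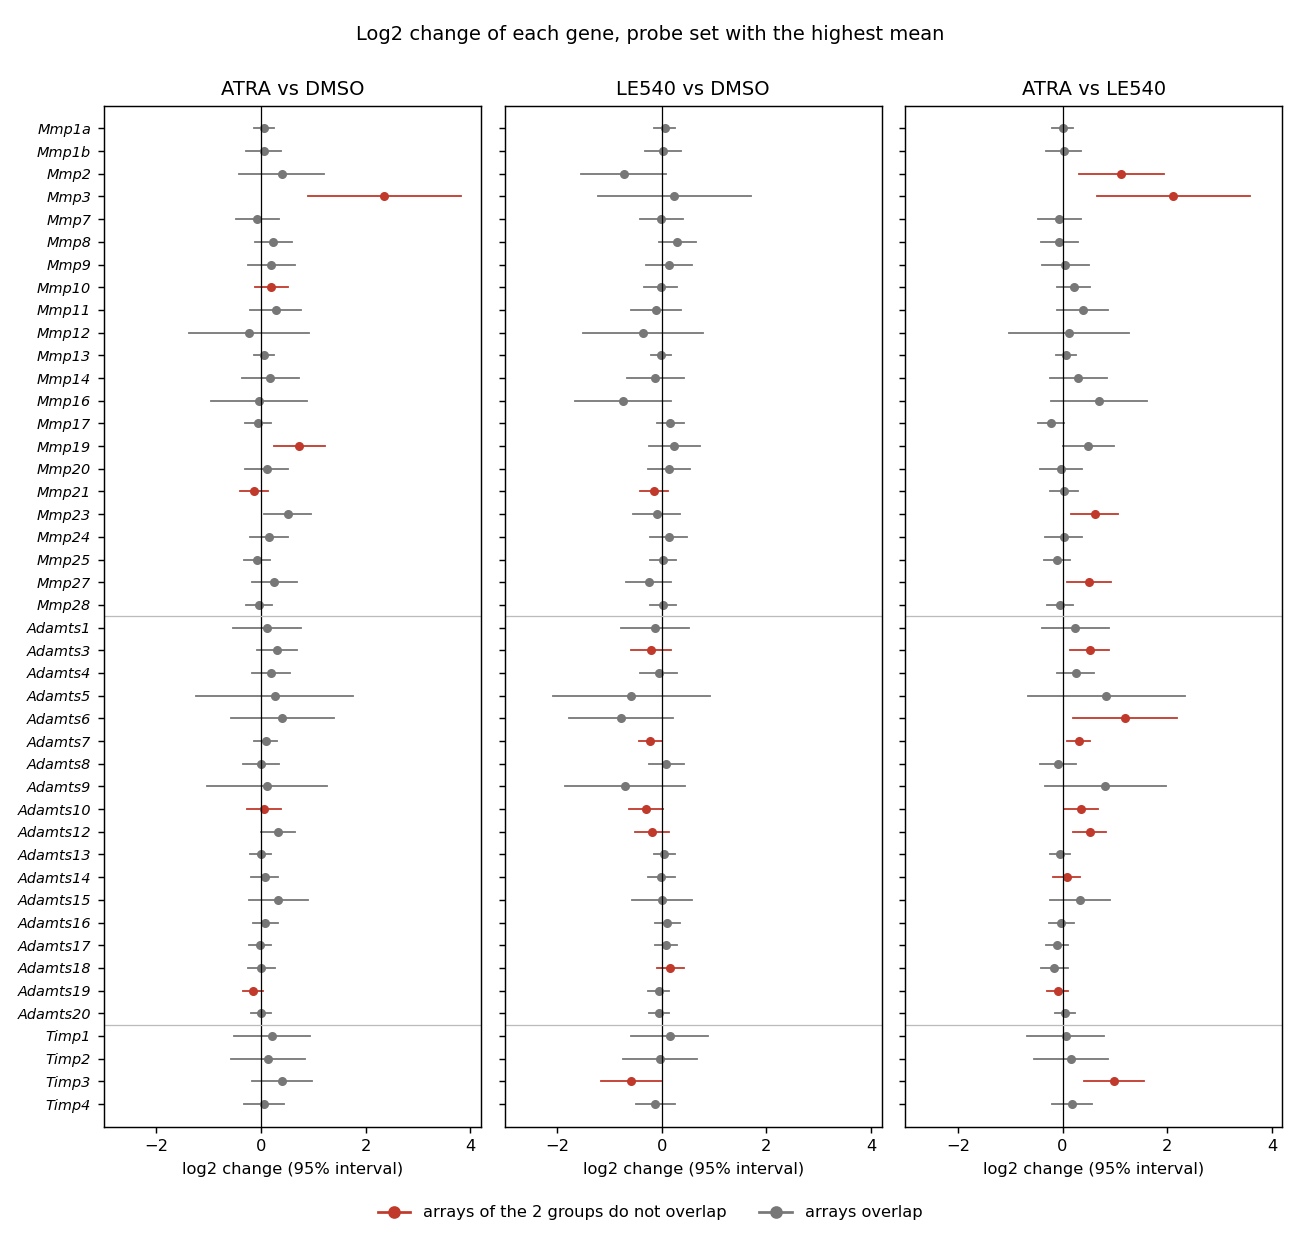
Log2 change with its 95% interval from limma for each of the 44 genes, by its brightest probe set on average, in the 3 comparisons; red marks genes whose arrays do not overlap between groups. Mmp3 lies farthest to the right in ATRA vs DMSO at 2.36, and 11 genes have ATRA wholly above LE540.

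By family, the log2 change in ATRA vs DMSO was above 0 for 15 of 22 Mmp, 29 of 42 Adamts and 4 of 4 Timp probe sets. In LE540 vs DMSO it was above 0 for 11 of 22 Mmp, 10 of 42 Adamts and 1 of 4 Timp probe sets, with medians of 0.01, -0.16 and -0.07, where 54.7% of all probe sets were above 0. In ATRA vs LE540 it was above 0 for 16 of 22, 33 of 42 and 4 of 4, against 43.1% of all. Leaving out LE540 replicate 1 gave 7, 10 and 1 in LE540 vs DMSO, and 18, 36 and 4 in ATRA vs LE540. With 1 probe set per Adamts gene the counts were 14, 6 and 12 of 18.

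Genes around these enzymes were counted from lists, 1 probe set per gene. Of 11 measured activators and other inhibitors, 0 passed in any comparison, and 9 were higher in ATRA vs DMSO, 5 in LE540 vs DMSO and 7 in ATRA vs LE540. In that order the median log2 changes were 0.13, -0.18 and 0.27, beside -0.01, 0.02 and -0.03 over all genes. For this list the medians with LE540 were -0.079 and 0.17 when LE540 replicate 1 was left out. The plasminogen activators Plau and Plat, which start the plasmin cascade that activates Mmp proenzymes, were 1.04 (adjusted p = 0.258) and 0.92 (adjusted p = 0.154) in ATRA vs LE540, and 0.89 and 0.98 without LE540 replicate 1. Plaur, of the same list, went the other way, at -0.59 in ATRA vs LE540 (limma adjusted p = 0.807) and 1.02 in LE540 vs DMSO. Without LE540 replicate 1 its changes were -0.51 and 0.93. Reck, a membrane-anchored inhibitor of Mmp enzymes, and Lrp1, which clears them from the surface, were -0.71 and -0.74 in LE540 vs DMSO (adjusted p = 0.608 and 0.541), and -0.34 and -0.64 without LE540 replicate 1.

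Of 17 related genes (Adamts-like, Adam and tolloid genes), 0 passed, and 4, 5 and 12 were higher in the same order of comparisons, with medians of -0.10, -0.16 and 0.04 (-0.14 and 0.010 with LE540 when its replicate 1 was left out). Adam17, the main sheddase of membrane proteins, read 837 ± 46.8 in DMSO, 563 ± 34.4 in ATRA and 835 ± 228 in LE540 (SD, n = 3 each). Its log2 change in ATRA vs DMSO was -0.57 and did not pass (limma adjusted p = 0.898). ATRA vs LE540 was -0.53 (limma adjusted p = 0.413), and -0.37 without LE540 replicate 1. Adam19, a protease needed for valve development, was 0.91 in ATRA vs LE540 (adjusted p = 0.171), and 0.73 without LE540 replicate 1.

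Of 18 measured substrates, 13, 4 and 14 were higher, with medians of 0.14, -0.08 and 0.20 (-0.045 and 0.13 with LE540 when its replicate 1 was left out). Only 1 passed: Vcan, the versican that Adamts enzymes cleave, read 1411 ± 198 in DMSO, 2714 ± 871 in ATRA and 1082 ± 128 in LE540. It was higher in ATRA than in LE540 by 1.29 log2 (SE 0.21, limma adjusted p = 0.0608), while ATRA vs DMSO was 0.91 (adjusted p = 0.534). The Vcan change in ATRA vs LE540 was 1.27 without LE540 replicate 1 and no longer passed (limma adjusted p = 0.192). The Mmp substrate elastin, Eln, was 0.74 in ATRA vs DMSO, and Col3a1 0.57 (adjusted p = 0.999 for both). Fbn2, of the same list, went the other way, at -0.45 in ATRA vs DMSO (limma adjusted p = 0.999). In ATRA vs LE540 it was -0.24, and -0.42 without LE540 replicate 1. Of 10 AP-1 and Ets transcription factor genes, 0 passed, and 5, 6 and 3 were higher, with medians of -0.03, 0.16 and -0.38 (0.10 and -0.26 with LE540 when its replicate 1 was left out). Jun, an AP-1 subunit, was 0.73 in LE540 vs DMSO (adjusted p = 0.502, and 0.62 without LE540 replicate 1) and 0.15 in ATRA vs DMSO.

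No single cell type marker passed, but summed levels differed between arrays. The summed intensity of 12 valve interstitial and fibroblast markers ran from 28638 to 35390 in DMSO, 35355 to 36545 in ATRA and 19075 to 32218 in LE540, lowest in LE540 replicate 1. In LE540 vs DMSO 11 of the 12 were lower, with a median of -0.33, beside the lower Mmp2, Timp3 and Adamts9 values. Without LE540 replicate 1 it was 8 of 12 and -0.10. In the same comparison 9 of 11 macrophage markers were lower (median -0.15) and 7 of 9 neutrophil markers higher (0.24). Without LE540 replicate 1 these were 6 of 11 (-0.02) and 7 of 9 (0.18). In ATRA vs DMSO 10 of 10 endothelial markers were higher (median 0.40, sums of 1378 to 2985 in DMSO and 2098 to 5419 in ATRA) and 11 of 12 cardiomyocyte markers lower (median -0.29, sums of 13295 to 27022 and 12792 to 22184). Of 7 smooth muscle markers 6 were higher (median 0.24), with sums of 2017 to 3860 in DMSO, 3578 to 7183 in ATRA and 1958 to 3065 in LE540. Beside the members' values in ATRA vs LE540, 11 of 12 interstitial (median 0.53), 10 of 10 endothelial (0.32) and 7 of 7 smooth muscle markers (0.28) were higher in ATRA and 10 of 12 cardiomyocyte markers lower (-0.47). Leaving out LE540 replicate 1 gave 10 of 12 (0.25), 10 of 10 (0.12) and 7 of 7 (0.23) higher, and 12 of 12 cardiomyocyte markers lower (-0.71). The part of these cell types in the member values was not tested. With the cardiomyocyte score as a covariate, Adamts3 10531191 was 1.31 in ATRA vs LE540 (limma adjusted p = 0.0818). No score of interstitial, endothelial or smooth muscle markers was fitted. The sum of 3 Y-linked genes ran from 110 to 613 in DMSO, 533 to 1411 in ATRA and 213 to 1334 in LE540, with overlap between the groups. With a Y-linked score as a covariate that Adamts3 change was 1.39 (adjusted p = 0.0365).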

How the data were processed

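Each of 9 pools of valves was hybridized to 1 one-colour array, after amplification and biotin labelling per the labels' protocols. The deposited table holds intensity values on a linear scale. Per the submitters' processing notes the authors used RMA in Affymetrix Expression Console 1.1 (background correction, quantile normalization, probe summary). The annotation and genome build used are not given in the sources used here. With 3 arrays in a group, their number sets the precision.

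Log2 was taken of all values. The 23397 probe sets with at least 1 gene symbol were fitted with limma 3.58.1 in R 4.3.3, with 3 groups over all 9 arrays, 6 residual and 2.725 prior degrees of freedom, two-sided, and Benjamini-Hochberg adjustment over all of them. A probe set passed at an adjusted p under 0.1, the threshold of the series' design text, which also asks for a fold over 2. Groups do not overlap when every array of one lies above every array of the other. The fit was tested on simulated data.

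The members, the gene lists and the markers were chosen with earlier results of these data known. Values are given for Mmp2, Mmp3, Mmp9, Mmp13, Mmp14, Adamts1, Adamts5, Adamts9 and the Timp genes, and for members that passed. They are also given for members with groups that do not overlap and a log2 change of at least 0.5 in size. Others are named where a range ends. Mmp10, Mmp11, Mmp21, Adamts10, Adamts14 and some further Adamts3 probe sets are named outside these rules. Adamts2 was also to be named but had no member probe set. Mast cell markers (7 genes, with 4 higher in ATRA vs DMSO, 2 in LE540 vs DMSO and 6 in ATRA vs LE540) passed nowhere.

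Whether equal replicate numbers pair the arrays was checked on their deviations from the group means over all probe sets. Correlations of these were 0.143, 0.342 and 0.22 between ATRA and DMSO arrays, and 0.261, 0.282 and 0.269 between ATRA and LE540 arrays. Differences within a replicate number are therefore given for some members in these comparisons. Between LE540 and DMSO arrays they were 0.00946, 0.215 and 0.126, and such differences are not given. The main fit, which gave the SEs, intervals and adjusted p values of the Results, did not pair the arrays. A replicate block over all 3 groups was run only as an alternative. Alternatives covered the arrays in the fit, the replicate block, normalization, scaling, filters, the prior, array weights, the threshold, 2 covariate scores and leaving out each array. A fit with 1 probe set per gene, and the lists without LE540 replicate 1, were chosen after seeing the data. All 68 members matched the RefSeq gene table by Entrez ID.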

Additional observations from a re-analysis of the deposited data

How the results depend on the processing

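Direction and side of the threshold held for most values under the alternatives run, with these exceptions, whose cause was not tested unless given. The number of members that passed in ATRA vs LE540 was 0 instead of 1 with only the brighter 50% of probe sets, which leaves Adamts3 probe set 10531191 untested, and 0 with 1 probe set per gene, which represents Adamts3 by another probe set. Over all, 139 of 11698 and 141 of 19934 probe sets passed in those fits. The number of members ranged from 1 to 2 with each array left out. It was 2 without ATRA replicate 1 and without ATRA replicate 2, where 66 and 128 of all 23397 probe sets passed. In LE540 vs DMSO it ranged from 0 to 1, with 1 without LE540 replicate 3, where Adamts3 10531191 was -1.09 (limma adjusted p = 0.0859). Without that array 297 of all 23397 probe sets passed, against 7 in the main fit. In ATRA vs DMSO the number of members stayed at 0, where 4 to 22 of all passed. The median over the members in LE540 vs DMSO was -0.18 with the Y-linked score, -0.023 with 1 probe set per gene, and -0.12 to -0.047 (without LE540 replicate 2) with each array left out. In ATRA vs LE540 it was 0.14 with 1 probe set per gene and 0.19 to 0.31 with each array left out. Scaling moved the median of all genes by less than 0.1.

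Members whose groups do not overlap number more when a group holds 2 arrays. With each array left out they ranged from 9 to 23 in ATRA vs DMSO, both directions together. They numbered 17, 14 and 14 without DMSO replicates 1, 2 and 3, and 19 and 23 without ATRA replicates 1 and 2. LE540 vs DMSO gave 13 to 25, with 25 without DMSO replicate 2, and 21 and 23 without LE540 replicates 1 and 3. ATRA vs LE540 gave 18 to 31, with 30 and 31 without ATRA replicates 1 and 2, and 31 without LE540 replicate 3. With 1 compared array left out, ATRA lay wholly above DMSO for 11.8% to 27.9% of members, against 8.01% to 10.6% of all. It lay wholly below for 4.41% to 10.3%, against 9.84% to 13%. LE540 lay wholly below DMSO for 19.1% to 32.4% (8.41% to 14.1% of all) and above for 2.94% to 8.82% (9.23% to 16.6%). ATRA lay wholly above LE540 for 25% to 42.6% (7.98% to 11.3%) and below for 1.47% to 7.35% (9.31% to 15.2%).

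With the replicate number as a block, 0 members passed in ATRA vs DMSO, 0 in LE540 vs DMSO and 1 in ATRA vs LE540. Over all 23397 probe sets 29, 1 and 221 passed, against 19, 7 and 141 in the main fit. The block thus changed no call among the members. The medians over the members were 0.10, -0.10 and 0.25, and Adamts3 10531191 had a limma adjusted p of 0.042 in ATRA vs LE540. Mmp3 in ATRA vs DMSO had an SE of 0.52 with the block (limma adjusted p = 0.419).

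Several small changes turned sign, none of them past the threshold. In ATRA vs DMSO the Y-linked score gave Mmp14 -0.13, Adamts1 -0.18, Adamts5 -0.52, Adamts9 10546452 -0.044, Timp2 -0.47 and Timp4 -0.051, the cardiomyocyte score gave Timp4 -0.035, and array weights gave Adamts9 10546450 0.13. In LE540 vs DMSO centred medians gave Mmp13 0.023 and Timp2 0.0015. In ATRA vs LE540 array weights gave Adamts3 10531173 0.12 and Timp1 -0.039, the Y-linked score Timp2 -0.026 and the cardiomyocyte score Timp1 -0.070.

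With each array left out, log2 changes in ATRA vs DMSO ranged from -0.047 to 0.42 for Mmp14, -0.11 to 0.40 for Adamts1, -0.10 to 0.43 for Adamts3 10531193, -0.50 to 0.70 for Adamts5, -0.031 to 0.46 for Timp1, -0.15 to 0.41 for Timp2 and -0.12 to 0.22 for Timp4. For Adamts9 they ranged from -0.19 to 0.66 (10546430), -0.10 to 0.90 (10546432), -0.48 to 0.089 (10546434), -0.70 to 0.28 (10546450) and -0.21 to 0.27 (10546452). In LE540 vs DMSO they ranged from -0.052 to 0.47 for Mmp3, -0.031 to 0.023 for Mmp13, -0.35 to 0.11 for Mmp14, -0.23 to 0.10 for Mmp23, -0.26 to 0.14 for Adamts1, -0.12 to 0.42 for Timp1 and -0.31 to 0.14 for Timp2. In ATRA vs LE540 they ranged from -0.13 to 0.27 for Mmp9, -0.023 to 0.53 for Adamts1, -0.15 to 0.088 for Adamts3 10531173, -0.21 to 0.33 for Timp1, -0.038 to 0.44 for Timp2 and -0.0014 to 0.34 for Timp4. Signal over background limits what dim members such as Mmp13 and Mmp27 can show.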
